A study of Mus musculus with 8 samples.

Results

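The muscarinic and neuronal nicotinic acetylcholine receptors were examined in the dorsal dentate gyrus of mice with and without Cav3.1, a T-type calcium channel. The set named 8 genes, the muscarinic receptors Chrm1, Chrm2, Chrm3 and Chrm4 and the nicotinic subunits Chrna4, Chrna5, Chrna7 and Chrnb2. Members were found by gene symbol in the platform annotation, and the set was chosen with earlier results of these data known. Of the 8 genes, 7 had a probe among the 23473 probes of the array, 1 probe each, so the provision to keep the brightest probe was not needed. Chrna7, which encodes the alpha7 subunit, was not analysed here. The 7 probes were reported from 8 arrays, 4 of wild-type (WT) and 4 of Cav3.1 KO animals, all from male C57BL/6J mice of 8 to 12 weeks per the labels. How the KO allele was made and whether the WT animals were littermates are not given in the labels or files. Total RNA was amplified, coupled to the dye Cy5 and hybridised in 1 colour. Nothing states that each array came from its own animal, so the p-values refer to the spread among these 8 samples, part of which may be technical.

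Acetylcholine reaches the dentate gyrus mainly along fibres from the medial septum and diagonal band. It acts there on G protein-coupled muscarinic receptors, of which M1 and M3 couple to Gq and phospholipase C, while M2 and M4 couple to Gi/o, lower cAMP and open inward rectifier potassium channels. Neuronal nicotinic receptors are pentameric cation channels. The alpha4 and beta2 subunits form the receptor with high nicotine affinity, alpha5 joins such receptors as an accessory subunit, and alpha7 forms channels by itself.

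All values below are log2 intensities after normalisation, and a difference is Cav3.1 KO minus WT. The median probe intensity of an array lay between 80.9 and 94.3, and the mean blank spot between 53.0 and 63.4. The probe for Cacna1g, the gene of Cav3.1, differed by -0.08 (SE 0.0508, limma adjusted p 0.816), and its place relative to the deleted part is not known from the labels or files, so it does not check the genotype. All 10 granule neuron markers examined were detected on all 8 arrays. Their mean did not overlap between groups, at 7.24 to 7.33 for WT against 7.09 to 7.22 for Cav3.1 KO. Of the 10, 7 were lower and 3 higher, and 1 was called, C1ql2, which was lower. Singly, 5 of the 10 did not overlap (50%, against 4.95% of all probes), among them Calb1, which was higher by 0.34. The Cav3.1 KO replicates 2 and 3 stood apart in markers of the habenula, a neighbouring region, with list means of 7.48 on both against 6.52 to 6.69 on the other 6 arrays. The file headers record a straight line between the scan gains, and its slope between gains 1 and 3 split the arrays into 0.244 to 0.247 (WT replicates 1, 2 and 4 and Cav3.1 KO replicate 1) and 0.235 to 0.236 (WT replicate 3 and the other 3 Cav3.1 KO arrays).

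Most receptor probes were dim. Relative to the mean blank spot of the same array, the Chrm1 probe was 1.57 to 1.98 times and the Chrm2 probe 1.54 to 2.06 times as bright. The other 5 probes were close to the blanks, at 1.19 to 1.30 times for Chrnb2, 1.09 to 1.28 for Chrna5, 1.09 to 1.16 for Chrm3, 1.06 to 1.11 for Chrm4 and 1.01 to 1.06 for Chrna4. Detection required a spot above the 95th percentile of the blank spots on the same array. By that criterion 6 of the 7 were detected on all 8 arrays, and Chrna4 on 2. Brightness differs between probes for reasons other than transcript number, so these ratios give the distance of each probe from background and no order of transcript abundance.

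**Figure D1:**
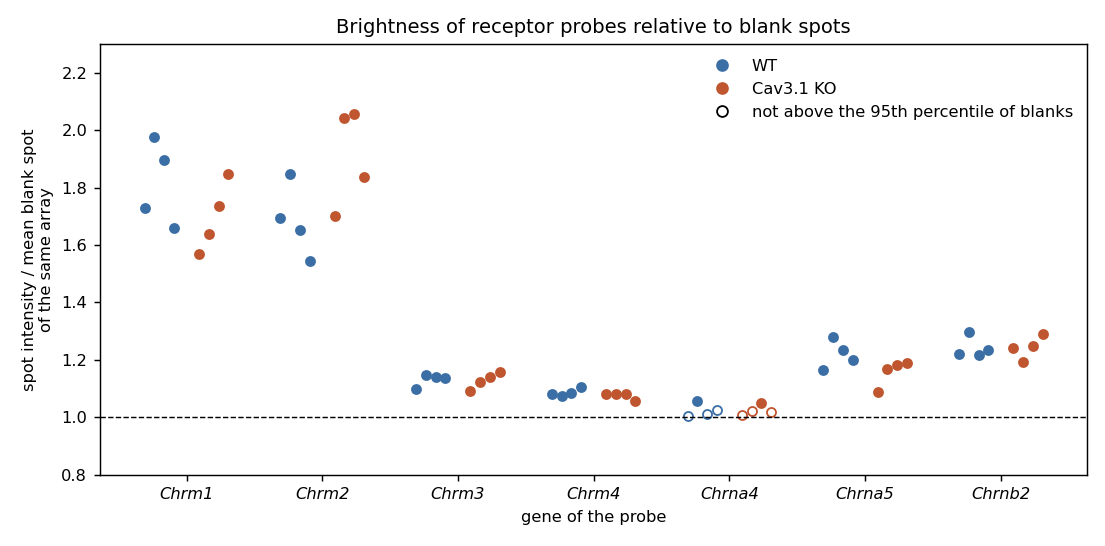
Spot intensity of each receptor probe divided by the mean blank spot of the same array, for the 4 WT and 4 Cav3.1 KO arrays. The dashed line at 1 is the blank level. Open points lie at or below the 95th percentile of blanks and occur only for Chrna4, where 6 of 8 are open, while Chrm1 and Chrm2 lie above 1.5.

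None of the tested receptor probes passed the test between genotypes. In the limma fit over all 21150 probes tested, 0 of 6 members had an adjusted p under 0.05, where 0.288% of all probes did. Before adjustment 1 of the 6, Chrm2, had a p under 0.05, against 8.1% of all probes. Chrm2 was also the 1 member of 6 whose groups did not overlap, against 4.95% of all probes. With 6 probes, these counts set nothing apart from the other probes.

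**Figure D2:**
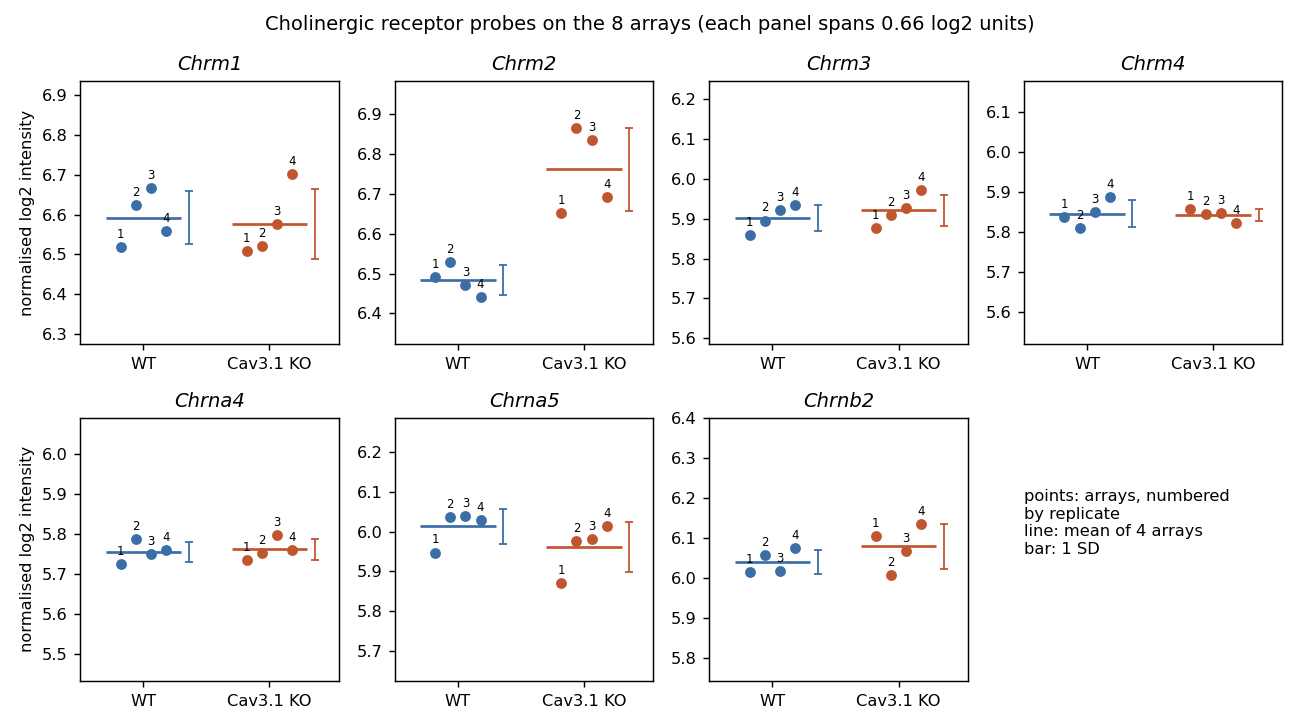
Normalised log2 intensity of the 7 receptor probes on each array, with points numbered by replicate, the mean of 4 arrays as a line and 1 SD as a bar. For Chrm2 the WT arrays lie between 6.44 and 6.53 and the Cav3.1 KO arrays between 6.65 and 6.86, while the groups overlap for the other 6 probes.

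Chrm2 encodes the Gi/o-coupled M2 receptor, known in the hippocampus from GABAergic interneurons and from cholinergic terminals, where it acts as an autoreceptor. Its probe gave 6.49, 6.53, 6.47 and 6.44 on WT replicates 1 to 4, a mean of 6.48 ± 0.0376 (SD, n = 4). It gave 6.65, 6.86, 6.84 and 6.69 on Cav3.1 KO replicates 1 to 4, a mean of 6.76 ± 0.105 (SD, n = 4). Every Cav3.1 KO array was thus above every WT array, and Cav3.1 KO replicates 2 and 3 were the highest. The difference was 0.28 (SE 0.0522, 95% interval 0.158 to 0.398), which is 1.21-fold on a scale that understates dim probes. It did not pass over all probes (limma p 0.000668, adjusted p 0.109). The exact two-sided permutation p was 0.0286, the smallest that 4 against 4 arrays allow. It was computed for each of the 6 tested members, and after Benjamini-Hochberg adjustment over those 6 the permutation p was 0.171. By p-value the probe stood at position 129 of 21150, and 1.70% of probes had a larger difference in size.

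After subtraction of the mean blank spot, the Chrm2 difference was 0.60 (SE 0.117, 95% interval 0.332 to 0.864, limma adjusted p 0.151), or 1.51-fold. In the authors' deposited value table, a blank-subtracted linear intensity, Chrm2 was listed at 25.7, 28.4, 21.8 and 22.9 on the WT arrays and 30.9, 42.8, 40.6 and 30.2 on the Cav3.1 KO arrays, in replicate order. The groups did not overlap on that scale either, and the ratio of means was 1.46.

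The Chrm2 groups did not overlap, so the difference had to be positive in every subset of arrays. Only its size could vary. Among the arrays with gain slopes of 0.244 to 0.247 it was 0.16 (3 WT against 1 Cav3.1 KO), and among those at 0.235 to 0.236 it was 0.33 (1 against 3). With the gain slope class as a block it was 0.25 (SE 0.0592, limma adjusted p 0.252). Array identifiers fell into 2 number ranges, and the difference was 0.30 in the lower range of 3 against 3 and 0.22 between the 2 arrays of the upper range, WT replicate 3 and Cav3.1 KO replicate 4. When the pair of arrays with high habenula markers was left out, it was 0.19 (SE 0.0384, limma adjusted p 0.249). Without Cav3.1 KO replicates 1 and 4, that pair was left as the only Cav3.1 KO arrays. The difference was then 0.37 and passed (SE 0.0358, limma adjusted p 0.0319), in a fit added after the data were seen. The pair also held the highest Chrm2 values. A smaller difference without it and a larger difference with it alone thus followed from the choice of arrays. The part that neighbouring tissue or scan settings have in the difference was not tested beyond these values.

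**Figure D3:**
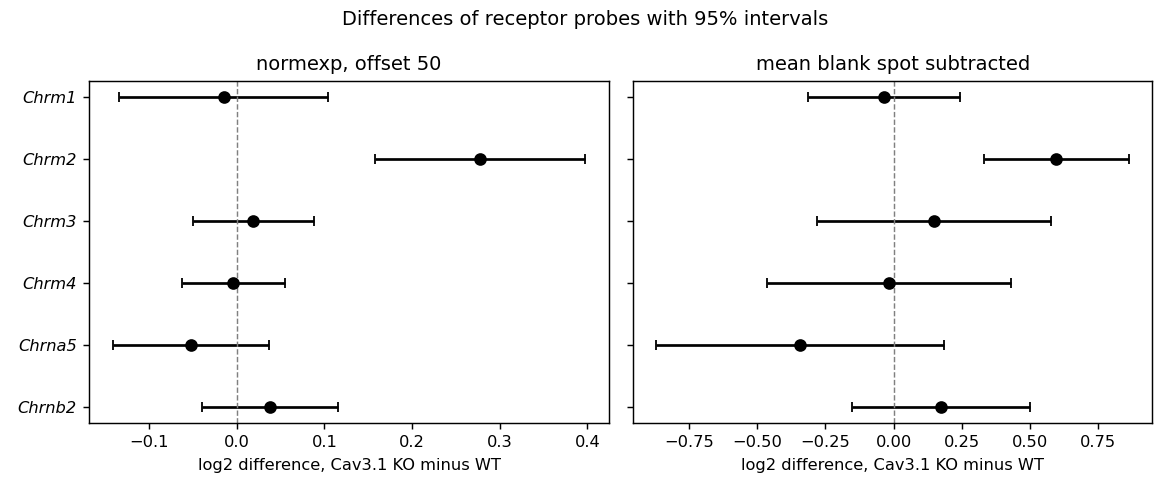
Log2 difference between Cav3.1 KO and WT for the 6 tested receptor probes, with 95% intervals from limma (n = 4 per group), after normexp correction with an offset of 50 and after subtraction of the mean blank spot. The horizontal scales differ. Chrm2 lies at 0.28 and 0.60, and the intervals of the other 5 probes include 0 in both panels.

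Markers of neighbouring regions were set beside Chrm2 array by array. The habenular neuropeptide gene Tac2 read 8.82 and 8.63 on Cav3.1 KO replicates 2 and 3 and 6.17 to 6.48 on the other arrays, and the habenular receptor gene Gpr151 read 7.64 and 7.53 against 6.05 to 6.25. These were chosen after their values were seen, and the other habenula markers did not all follow them. Pou4f1 was 7.34 and 7.35 on those arrays against 7.41 on Cav3.1 KO replicate 1, Nwd2 was 6.35 and 6.33 within a WT range of 6.27 to 6.45, and Htr5b was 7.27 and 7.55 against 7.22 on WT replicate 2. Of the 4 habenula markers tested, which leaves out Htr5b, 0 were called. The thalamus list of 10 genes had means of 7.16, 7.26, 6.76 and 6.67 on the WT arrays and 6.89, 7.44, 7.47 and 6.84 on the Cav3.1 KO arrays, in replicate order, with 7 of 10 higher. On WT replicates 1 to 4 the thalamic kinase gene Prkcd read 8.66, 8.62, 6.96 and 7.13, and Chrm2 read 6.49, 6.53, 6.47 and 6.44. Among the WT arrays Chrm2 had the same order as the thalamus list mean. In Cav3.1 KO replicates 2 and 3 were highest in both. Across the groups the order differed, as Cav3.1 KO replicates 1 and 4 lay below WT replicates 1 and 2 in the list mean and above them in Chrm2. Replicates 1 and 4 of Cav3.1 KO had Tac2 at 6.25 and 6.27, which the WT values span, and Chrm2 at 6.65 and 6.69. On the same arrays a list of 9 neocortex and subiculum markers had means of 7.59 and 7.65, above the 7.31 to 7.39 of the WT arrays and the 7.37 and 7.41 of Cav3.1 KO replicates 2 and 3, with 8 of 9 higher in Cav3.1 KO and 0 called. The part that any of these regions has in the Chrm2 difference was not tested. Of the 9 thalamus markers tested, 1 separated the groups (11.1%, against 4.95% of all probes). This was Slc17a6, a glutamate transporter gene of thalamus and habenula chosen after its values were seen. It read 7.65 to 8.62 for WT against 8.66 to 9.73 for Cav3.1 KO (limma adjusted p 0.38). Of the same 9 markers, 2 were lower in Cav3.1 KO.

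**Figure D4:**
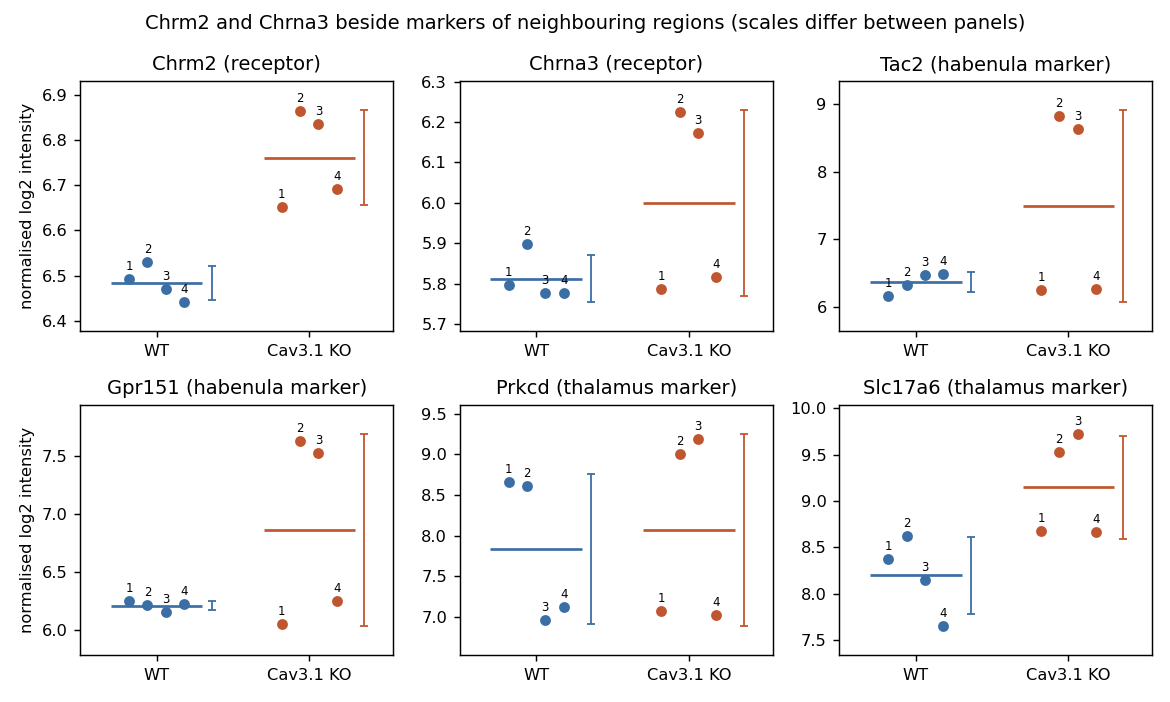
Normalised log2 intensity of Chrm2, the nicotinic subunit Chrna3, the habenula markers Tac2 and Gpr151 and the thalamus markers Prkcd and Slc17a6 on each array, numbered by replicate, with the mean and 1 SD of 4 arrays. Cav3.1 KO replicates 2 and 3 are highest in all 6 panels, and WT replicates 1 and 2 are also high for Prkcd.

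Markers of GABAergic interneurons, cells in which Chrm2 is known to be expressed, overlapped between groups as a list. The mean of 12 markers ran from 7.97 to 8.12 for WT and 7.95 to 8.23 for Cav3.1 KO, with 7 of 12 higher and 0 called. It read 8.15, 7.95, 8.05 and 8.23 on Cav3.1 KO replicates 1 to 4. Single markers went both ways, such as Vip by 0.36 and Npy by -0.40, both chosen after their values were seen (limma adjusted p 0.725 and 0.130). The mean of astrocyte markers did not overlap, at 8.79 to 8.85 for WT against 8.86 to 8.91 for Cav3.1 KO, with 6 of 7 higher. The connexin gene Gjb6 was the 1 called, at 0.38, and the other astrocyte markers differed by only -0.02 to 0.04. The mean of endothelial and pericyte markers did not overlap in the other direction, at 7.74 to 7.88 against 7.60 to 7.73, with 2 of 7 higher. The tight junction gene Cldn5 was the 1 called, at -0.79, and the other markers of that list differed by -0.19 to 0.05. The part of the interneuron, astrocyte or vascular list in the Chrm2 difference was not tested. Markers of cholinergic neurons overlapped, at 6.00 to 6.06 for WT against 6.02 to 6.07 for Cav3.1 KO over 7 genes. Several of these probes, such as Ngfr and Lhx8, lay close to the blanks, and Isl1 was detected on 2 arrays. The overlap therefore says little about such neurons. In such bulk tissue, a change in the number of cells of a type and a change in RNA per cell cannot be told apart.

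Because Chrm2 was the member whose groups did not overlap, the sequence before its gene is shown. The RefSeq promoter table places the Chrm2 window on the plus strand of GRCm38.p6, and the bases upstream of the annotated gene are printed, chr6:36387834-36387990, with the 1 motif match in this stretch in capitals, a CCAAT box read on the opposite strand.
Chrm2: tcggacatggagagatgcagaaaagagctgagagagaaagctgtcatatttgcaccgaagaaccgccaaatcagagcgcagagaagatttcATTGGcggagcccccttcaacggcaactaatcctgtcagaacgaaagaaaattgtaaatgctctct

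The motifs searched on both strands were the E-box CANNTG, the GC box GGGCGG, the CCAAT box CCAAT, the TATA box TATAAA, the cAMP response element TGACGTCA and its core TGACG, the AP-1 site TGANTCA, the glucocorticoid receptor motif AGAACA and the left part of RE1, TTCAGCACC. The core TGACG lies within the full cAMP response element. In the full 300-base Chrm2 window, the matches were 1 CCAAT box, a motif held by 37.4% of all 32851 promoter windows of this length, and 1 GC box, held by 35.7%. The window held 16 CpG dinucleotides, and 67% of windows held fewer. Chrm4 and Chrna4 had denser windows, with 30 and 33 CpG and 4 and 3 GC boxes. These matches describe letters only.

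Chrm1 encodes the Gq-coupled M1 receptor, the main muscarinic receptor of hippocampal principal neurons. Its probe gave 6.52, 6.62, 6.67 and 6.56 on WT replicates 1 to 4 and 6.51, 6.52, 6.58 and 6.70 on Cav3.1 KO replicates 1 to 4. The groups overlapped over nearly their whole range. The difference was -0.0149 (SE 0.0517, 95% interval -0.134 to 0.104, limma adjusted p 0.995). After subtraction of the blank level it was -0.0355 (95% interval -0.315 to 0.244), a range that holds changes of both signs. Within the 3 against 3 arrays of the lower number range it was -0.0316.

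Chrm3, the gene of the Gq-coupled M3 receptor, read 5.86, 5.90, 5.92 and 5.93 in WT and 5.88, 5.91, 5.93 and 5.97 in Cav3.1 KO. Chrm4, the gene of the Gi/o-coupled M4 receptor, read 5.84, 5.81, 5.85 and 5.89 in WT and 5.86, 5.84, 5.85 and 5.82 in Cav3.1 KO. Both sets of values overlapped and lay just above the blanks. The differences were 0.0188 (SE 0.03, limma adjusted p 0.976) for Chrm3 and -0.00379 (SE 0.0256, limma adjusted p 0.998) for Chrm4. The direction for Chrm4 turned with median scaling, to 0.0174. After subtraction of the blank level the intervals widened to -0.28 to 0.58 for Chrm3 and -0.465 to 0.433 for Chrm4.

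Chrna5 encodes the accessory alpha5 subunit. Its probe gave 5.95, 6.04, 6.04 and 6.03 on WT replicates 1 to 4 and 5.87, 5.98, 5.98 and 6.01 on Cav3.1 KO replicates 1 to 4. WT replicate 1 lay below the other WT arrays and overlapped the Cav3.1 KO values. The difference was -0.05 (SE 0.0386, 95% interval -0.141 to 0.036, limma adjusted p 0.881, exact permutation p 0.286). It was -0.0224 without Cav3.1 KO replicate 1, the lowest array, and -0.0744 without WT replicate 1. After blank subtraction it was -0.34 (95% interval -0.871 to 0.184), and the authors' deposited table gave a ratio of means of 0.777. With the gain slope class as a block it was -0.0914 with an unadjusted limma p of 0.0425 and an adjusted p of 0.481. The reference places Chrna5 beside Chrna3 and Chrnb4, with annotated spans of Chrna5 and Chrna3 that overlap. The positions of the probes are not known, so whether either lies in the shared part was not tested.

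Chrnb2 encodes beta2, the partner of alpha4. Its probe gave 6.01, 6.06, 6.02 and 6.08 in WT and 6.10, 6.01, 6.07 and 6.14 in Cav3.1 KO, in replicate order. The lowest of all 8 values was on Cav3.1 KO replicate 2 and the highest on Cav3.1 KO replicate 4. The difference was 0.0381 (SE 0.0339, 95% interval -0.0398 to 0.116, limma adjusted p 0.93), and 0.17 after blank subtraction (95% interval -0.153 to 0.5). The 2 arrays with high habenula markers, Cav3.1 KO replicates 2 and 3, thus held the lowest value and one in the middle of the range.

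Chrna4, the gene of the alpha4 subunit, exceeded the 95th percentile of blanks on 2 arrays, replicate 2 of WT and replicate 3 of Cav3.1 KO. Its spots read 53.3, 56.6, 60.5 and 56.7 in WT and 56.7, 64.7, 62.8 and 61.9 in Cav3.1 KO, and mean blank spots were 53.0, 53.6, 59.7 and 55.4 and 56.2, 63.4, 59.8 and 60.8 on the same arrays. Spot brightness followed the blank level of each array. The probe was not tested, and no fold is given.

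The remaining receptor genes with a probe were 12, the muscarinic receptor gene Chrm5 and nicotinic subunits. They came from a list of genes that are rarer in forebrain or belong to muscle. Among them Chrm5 differed by 0.06 (limma adjusted p 0.866). Of 12 tested, 0 were called, 0 had an unadjusted limma p under 0.05, and 9 differences were positive, with a median of 0.0251 against -0.000775 over all probes. Chrna3, an alpha subunit abundant in the medial habenula, had the smallest p, and read 5.80, 5.90, 5.78 and 5.78 in WT and 5.79, 6.22, 6.17 and 5.82 in Cav3.1 KO. Its high values were those of Cav3.1 KO replicates 2 and 3. The difference was 0.19 (limma adjusted p 0.758) with all arrays and -0.0101 without those 2, and 0.39 (limma adjusted p 0.0519) with those 2 as the only Cav3.1 KO arrays. Chrnb3, a subunit of habenular and midbrain receptors, differed by 0.05 (limma adjusted p 0.763). The probes of Chrna3 and Chrnb3 were close to the blanks, with mean spots of 59.1 and 58.2 in WT and 72.1 and 64.6 in Cav3.1 KO. These spots are not corrected for background. The mean blank spot was 53.0 to 59.7 on the WT arrays and 56.2 to 63.4 on the Cav3.1 KO arrays. Chrnb4, which pairs with alpha3 in the habenula and was chosen after its values were seen, differed by 0.06 (limma adjusted p 0.929), with overlapping groups.

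The synthesis, transport and breakdown of acetylcholine showed no call among 9 tested genes, and 0 had an unadjusted limma p under 0.05. The median difference was 0.0339, with 8 of 9 positive. Slc18a3, the vesicular acetylcholine transporter, differed by 0.04 (SE 0.0287, limma adjusted p 0.874). Ache, the acetylcholinesterase that ends cholinergic transmission, differed by 0.14 (limma adjusted p 0.940), and 1 array, WT replicate 2 at 7.03, lay above the other WT arrays at 6.44 to 6.51. Without that array the difference was 0.27, and without WT replicate 1 it was 0.08. Bche was not detected on any array and was not tested.

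Chaperones and prototoxins that assemble or tune nicotinic receptors were uncalled. Of 12 tested, 0 were called and 0 had an unadjusted limma p under 0.05, with a median difference of 0.0565. Ric3, a chaperone of alpha7 receptors, differed by 0.05 (SE 0.0298, limma adjusted p 0.748), from 7.71 ± 0.0319 (SD, n = 4) to 7.76 ± 0.0394 (SD, n = 4). A second, dimmer Ric3 probe differed by -0.0326. Lypd6b, a prototoxin of the Ly6 family, differed by 0.10 (limma adjusted p 0.749).

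Downstream of the muscarinic receptors, no gene of the Gq arm passed. Of its 16 tested genes 0 were called, 3 had an unadjusted limma p under 0.05 (18.8%, against 8.1% of all probes) and 2 separated the groups without overlap (12.5%, against 4.95%). With 16 genes, these shares set nothing apart. Dgkz, a kinase that removes the second messenger diacylglycerol, read 9.07, 9.08, 9.44 and 9.53 in WT and 8.92, 8.87, 8.79 and 8.90 in Cav3.1 KO. Every Cav3.1 KO value was below every WT value. The difference was -0.41 (limma p 0.00525, adjusted p 0.269). These values are from the brightest of 3 Dgkz probes, and the other two, both dimmer, differed by -0.00252 and 0.0181. Itpr3, an inositol trisphosphate receptor, differed by 0.11 without overlap (limma adjusted p 0.371), and Prkca, a diacylglycerol-dependent kinase chosen after its values were seen, by -0.29 with overlap (limma adjusted p 0.420). A dimmer Prkca probe differed by -0.11.

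In the Gi/o arm, into which M2 and M4 feed, 0 of 14 tested genes were called and 0 had an unadjusted limma p under 0.05. The median difference was -0.00268. Gnai2, a Gi alpha subunit, differed by 0.24 and the adenylyl cyclase gene Adcy9 by -0.11, with limma adjusted p-values of 0.828 and 0.839. Without WT replicate 2, which read 9.23 against 9.78 to 9.92 on the other WT arrays, the Gnai2 difference was 0.08, and without WT replicate 4 that of Adcy9 was -0.04. Among 14 regulators of G proteins and receptors, also 0 were called and 0 had an unadjusted limma p under 0.05. Rgs17 and Rgs4, which speed up the shut-off of G proteins, differed by 0.22 and 0.26, with limma adjusted p-values of 0.679 and 0.771. Over all 6 lists, 0 of 77 tested genes were called by limma, 3.90% had an unadjusted p under 0.05 against 8.1% of all probes, and 2.60% did not overlap between groups against 4.95%.

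**Figure D5:**
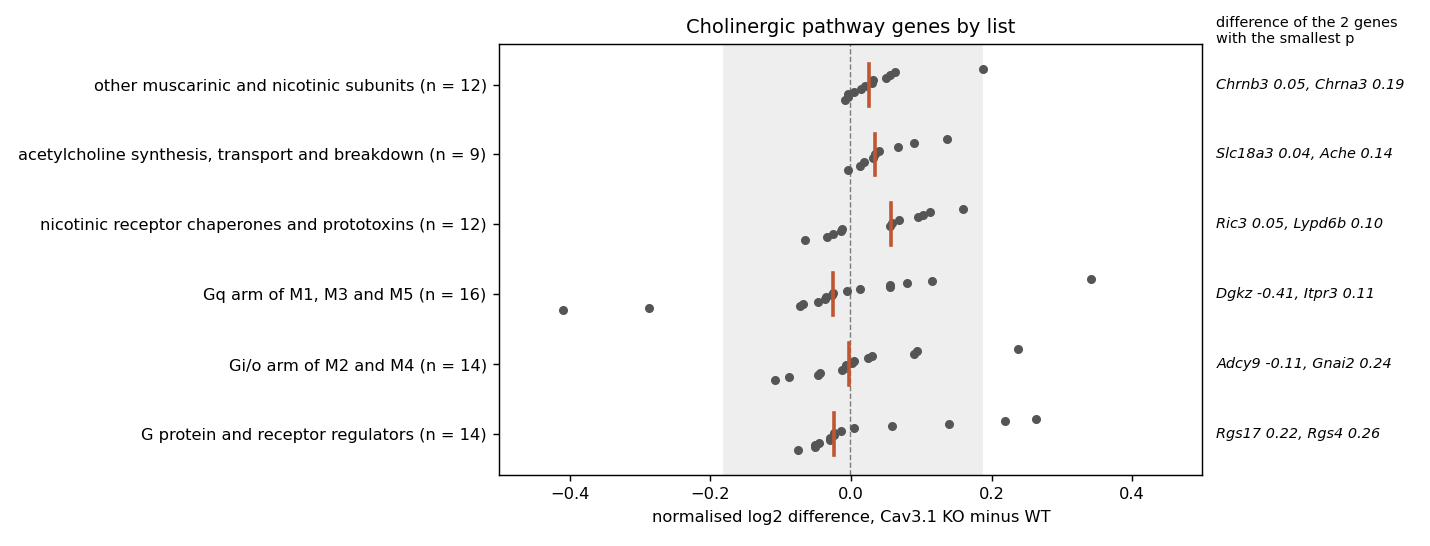
Normalised log2 difference between Cav3.1 KO and WT for the 77 tested cholinergic pathway genes, by list, with the list median as a bar. The shaded band from -0.18 to 0.19 holds the middle 95% of all tested probes the dashed line is their median, and the names at the right are the 2 genes of each list with the smallest p. The list medians lie between -0.0259 and 0.0565, and Dgkz is the lowest point at -0.41.

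For each tested receptor, the genes with an established symbol whose values over the 8 arrays were most like it were read from 17526 candidates, as a description. For Chrm2 these were Hs3st5, a heparan sulphate sulphotransferase gene, with a Pearson r of 0.981 over 8 arrays, and the Kelch-like gene Klhl13, with 0.976. They differed by 0.17 and 0.32, and neither passed the test (limma adjusted p 0.126 and 0.128). For Chrm1 they were Fam234a (0.978) and Rpusd3 (0.97), for Chrm3 Uts2r (0.967) and Dppa1 (0.954), and for Chrm4 Drp2 (0.986) and Spata9 (0.965). For Chrna5 they were Pak1ip1 (0.974) and Fam114a2 (0.969), and for Chrnb2 Decr2 (0.958) and Qrich1 (0.954). All arrays enter every pair, the highest of many candidates is high by selection, and between 16 and 67 candidates exceeded 0.9 for each receptor.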

How the data were processed

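Gene expression was measured on 8 single-colour arrays. The authors deposited scanner output with a median spot intensity at 635 nm, not normalised, per the file headers. The sources used here do not say how the scanner's 3 gains were merged. The value table they deposited holds a linear intensity per probe, with array medians of 25.0 and a zero at the mean blank spot of each array.

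Spot intensities, control spots included, were corrected with normexp (offset 50) in place of a local background, since the deposited background column followed the spot (r of 0.994 to 0.996 on the log2 scale), and log2 values were quantile normalised. The brightest probe stood for a gene with several. Probes above the 95th percentile of the 2736 blank spots on at least 4 arrays were tested, which left out 2239 dim probes and 84 with a spot marked not good, and kept 21150. The 2 genotypes were fitted as group means by limma 3.58.1 (R 4.3.3), and calls were made at 0.05 after Benjamini-Hochberg adjustment across the tested probes. Exact two-sided permutation tests used all 70 arrangements. The number of arrays limits the precision. Same-numbered arrays of both groups did not deviate together (correlations of -0.115 to 0.0109), so replicate numbers were not used as pairs.

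Members and lists were chosen with earlier results of these data known. The genes named are the members, Cacna1g, and in each pathway list the 2 with the smallest p. The 2 genes most like each tested member are also named. Further names are marker genes of other cells and regions, Bche, Chrm5 and the exceptions marked, all chosen after their values were seen. Gene symbols came from the platform annotation, and neighbours and promoters from RefSeq (GRCm38.p6). Alternatives covered background, normalisation, filter, blocks and arrays left out, and the gain block and the fit without Cav3.1 KO replicates 1 and 4 were added after the data were seen.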

Additional observations from a re-analysis of the deposited data

Results flagged for a closer look

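In 4 of 38 groups of 4 arrays, 1 array lay far from the others, where chance gives about 1 in 20. Chrna5 was 5.95 on WT replicate 1 against 6.03 to 6.04 on the other WT arrays. On WT replicate 2, Chrna3 was 5.90 against 5.78 to 5.80, Ache 7.03 against 6.44 to 6.51, and Rgs17 8.96 against 8.56 to 8.58. The causes were not tested.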

How the results depend on the processing

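Under all 22 alternatives run, 0 pathway genes were called. Receptor probes were called 0 times in 21 of them, and 1, Chrm2, was called without Cav3.1 KO replicates 1 and 4 (0.37, limma adjusted p 0.0319). Those left-out arrays held the lowest Cav3.1 KO values of Chrm2. Chrm2 kept its direction in all of them, between 0.19 and 0.60, with limma adjusted p-values from 0.0319 to 0.386 (value table of the series, 0.54). Leaving arrays out could not turn the Chrm2 difference, since its groups did not overlap. With single arrays left out, it ran from 0.24 to 0.31. With the replicate block, its difference was 0.28 with an adjusted p of 0.222. The count over all probes, 61, was 31 with the value table, 36 with median scaling, 8 with the replicate block, 7 in the lower number range of arrays, 23 with the gain class as a block, 17 without Cav3.1 KO replicates 2 and 3, 40 without Cav3.1 KO replicates 1 and 4, and 16 to 49 with single arrays left out (16 without WT replicate 4, 26 without WT replicate 3, 37 without WT replicate 1, and 29, 33 and 34 without Cav3.1 KO replicates 2, 3 and 4). Reversals were Chrm4 at 0.0174 with median scaling and 0.0042 in the lower number range, Chrm1 at 0.0131 and Chrna3 at -0.0101 without Cav3.1 KO replicates 2 and 3, Chrnb2 at -0.00324 without Cav3.1 KO replicates 1 and 4, and Chrm3 at -0.00256 with the gain block. With single arrays left out, Chrm1 ran from -0.0566 to 0.0101, Chrm4 from -0.0162 to 0.0103, Chrm3 from 0.0022 to 0.0338, Chrnb2 from 0.019 to 0.062, Chrna3 from 0.11 to 0.26, Lypd6b from 0.06 to 0.13, and Rgs4 from 0.16 to 0.37. The Dgkz difference was -0.13 as the mean of its probes. The causes were not tested. Signal close to the blanks limits Chrm3, Chrm4, Chrna4, Chrna5 and Chrnb2, and outside the set also Chrna3, Chrnb3 and Slc18a3.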
